A study of Mus musculus with 35 samples.

Results

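The 10 genes for enzymes that convert purine nucleotides into one another were followed as a family in mouse interscapular brown adipose tissue (iBAT) through a cold exposure time course. They are Gmpr, Gmpr2, Impdh1, Impdh2, Ampd2, Ampd3, Gmps, Adsl, Xdh and Guk1, 10 of the 55421 genes in the count table, and each had a single row. The family was chosen by the change of 3 of them: Gmpr counts had been seen to be far higher, and Ampd2 and Impdh1 counts lower, in cold-exposed mice than in controls. Their values against controls are therefore a description with no test, and the other 7 genes were tested. The tissue came from 35 male C57BL/6J mice aged 9 to 10 weeks. Groups kept at 6 °C for 6 hours or for 1, 2, 3, 4 or 5 days were set against room temperature (RT) controls, with 5 mice in each of the 7 groups. Cold-exposed mice were housed singly without nesting material, and controls were kept at the room temperature of the colony. How the controls were caged is not given in the sources used here. Each mouse gave its own 3' end library of 3846016 to 6047247 counts, in which 1 read was worth 0.26 CPM (counts scaled to a common library size) in the smallest library.

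The purine ring is made as IMP, which stands at a fork. IMP dehydrogenase (Impdh1, Impdh2) and GMP synthetase (Gmps) lead from IMP to GMP, GMP reductase (Gmpr, Gmpr2) leads directly back from GMP to IMP, and adenylosuccinate lyase (Adsl) acts both in making IMP and on the branch from IMP to AMP. AMP deaminase (Ampd2, Ampd3) returns AMP to IMP, guanylate kinase (Guk1) phosphorylates GMP to GDP, and xanthine dehydrogenase (Xdh) oxidizes the purine bases to uric acid. Purine di- and triphosphates bind UCP1, the proton carrier of brown adipocyte mitochondria, and inhibit it.

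The 3 genes chosen for their change lie apart in the genome. In GRCm38, Gmpr spans chr13:45507444-45553800 on the plus strand, Impdh1 spans chr6:29200434-29216364 on the minus strand and Ampd2 spans chr3:108074062-108086651 on the minus strand. RefSeq promoter windows (GRCm38.p6, 250 bases before to 50 after a start site) were at hand for 9 of the 10 genes, 14 windows in all, and Xdh had none. They were searched on both strands for the cAMP response element TGACGTCA, its short form TGACG, the NR4A element AAAGGTCA, the ERR element TCAAGGTCA and the E-box CACGTG, which were in 1.79%, 20.8%, 1.51%, 0.423% and 7.15% of all 32851 windows. The short form also lies within the full element. None of these letters were in the windows of Gmpr, Ampd2, Gmpr2, Adsl or Guk1. The short form was found in 1 of the 2 windows of Impdh1, at position 39 after the start site and on the opposite strand, in Gmps and at 2 places in Impdh2, and an E-box was found in Impdh2 and in 1 of the 3 windows of Ampd3. The stretches of 30 bases that show these matches in Impdh1 and Gmps, and the last 30 bases before the start sites of Gmpr and Ampd2, are printed in the direction of the gene, with matched letters in capitals.
Gmpr, before the start (chr13:45507414-45507443, plus strand): ggatgtgggcgggacctggaagccgggggc
Ampd2, before the start of window 1 (chr3:108085403-108085432, minus strand): agtcactcccgctgggggcggggcggagga
Impdh1, match in window 1 (chr6:29212248-29212277, minus strand): cagcgtggcctcggtgcgCGTCAgcagcag
Gmps, match (chr3:63976050-63976079, plus strand): tatcttcccggggTGACGacgagggcgggg
Guanine and cytosine made up 64.0% of the Gmpr window, 62.3% and 61.7% of the Ampd2 windows and 71.3% and 61.3% of the Impdh1 windows, against a median of 52.7% over all windows. A match, or its absence from a window, is a description of these letters only.

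Gmpr, one of the 2 genes for GMP reductase, was the member with the largest difference from controls. Control mice had 95.5, 95.4, 103, 113 and 76.1 CPM. After 6 hours of cold the 5 mice had 2109.6, 3604, 2981, 4049.9 and 3650.1 CPM, and after 1 day they had 5109, 3949, 3502, 4465 and 4872 CPM. The lowest mouse at either time was far above the highest control. Values of 1566, 1764, 2401, 1909 and 1452 CPM followed after 2 days. Mice had 924, 1172, 952, 896 and 923 CPM after 3 days, and 848, 1261, 1131, 1128 and 851 CPM after 4 days. The last group, at 5 days, had 1138, 650.3, 964, 664 and 899 CPM. All 30 cold-exposed mice were above all 5 controls, and the 1 day group did not overlap with any later group. The share of all genes that separate from controls in this way, here or for the genes below, was not counted. As background, edgeR called 42.5% of all genes different from controls after 6 hours, 36.7% after 1 day, 31.2% after 2 days and 33.8%, 38.0% and 38.8% from 3 to 5 days. The mean was thus 96.5 ± 13.5 CPM at RT (SD, n = 5), 4379 ± 659 CPM after 1 day and 863 ± 207 CPM after 5 days. In order of mean level the groups ran 1 day, 6 hours, 2 days, 4 days, 3 days, 5 days and RT. Ranges overlapped between 1 day and 6 hours, between 6 hours and 2 days, and among 3, 4 and 5 days. On the log2 scale the differences from controls were 5.07 after 6 hours (SE 0.17) and 5.50 after 1 day (SE 0.15), and from 2 to 5 days they were 4.23, 3.34, 3.43 and 3.15 in turn (SE 0.12 to 0.17).

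Impdh1, which codes for an isoform of the enzyme that oxidizes IMP on the way to GMP, was lower in the cold, and it reached its low level later than Ampd2 did. Controls had 68.9, 114, 125, 200.3 and 187 CPM, a wider spread than in any cold group. After 6 hours the mice had 65.7, 69.7, 72.0, 65.0 and 69.7 CPM, and 2 of the 5 were below every control. After 1 day values were 20.9, 21.5, 19.7, 18.7 and 15.2 CPM, below all controls and below all mice at 6 hours. Levels stayed there, with 14.2 to 20.8 CPM at 2 days, 13.6 to 17.3 CPM at 3 days, 16.2 to 21.9 CPM at 4 days and 16.5 to 24.2 CPM at 5 days. The groups from 1 to 5 days overlapped, so their order is not set beyond their spread. Log2 differences from controls were -1.05 after 6 hours (SE 0.20) and -2.86 after 1 day (SE 0.24), and from 2 to 5 days they were -3.03, -3.18, -2.94 and -2.76 in turn (SE 0.23 to 0.25). Leaving out 1 mouse at a time gave 6 hour differences between -1.21 and -0.87.

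Ampd2, which codes for an AMP deaminase isoform, was lowest at the first time point. Control values were 18.4, 22.0, 22.0, 26.7 and 22.9 CPM. After 6 hours they were 4.47, 2.78, 2.24, 3.07 and 1.49 CPM, which rests on 8 to 17 reads per mouse. After 1 day they were 6.52, 5.04, 6.82, 2.56 and 7.37 CPM. All 30 cold-exposed mice were below all 5 controls. Group means were 22.4 ± 2.97 CPM at RT (SD, n = 5), 2.81 ± 1.11 at 6 hours and 5.66 ± 1.94 at 1 day, and from 2 to 5 days they were 6.21 ± 1.84, 5.87 ± 1.32, 6.73 ± 2.08 and 6.25 ± 1.80. From 1 to 5 days the groups overlapped, and the 6 hour and 1 day ranges also met, through 1 mouse at 2.56 CPM after 1 day. Log2 differences from controls were -3.05 after 6 hours (SE 0.21), and from 1 to 5 days they were -1.96, -1.87, -1.91, -1.73 and -1.84 in turn (SE 0.17 to 0.20).

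**Figure D1:**
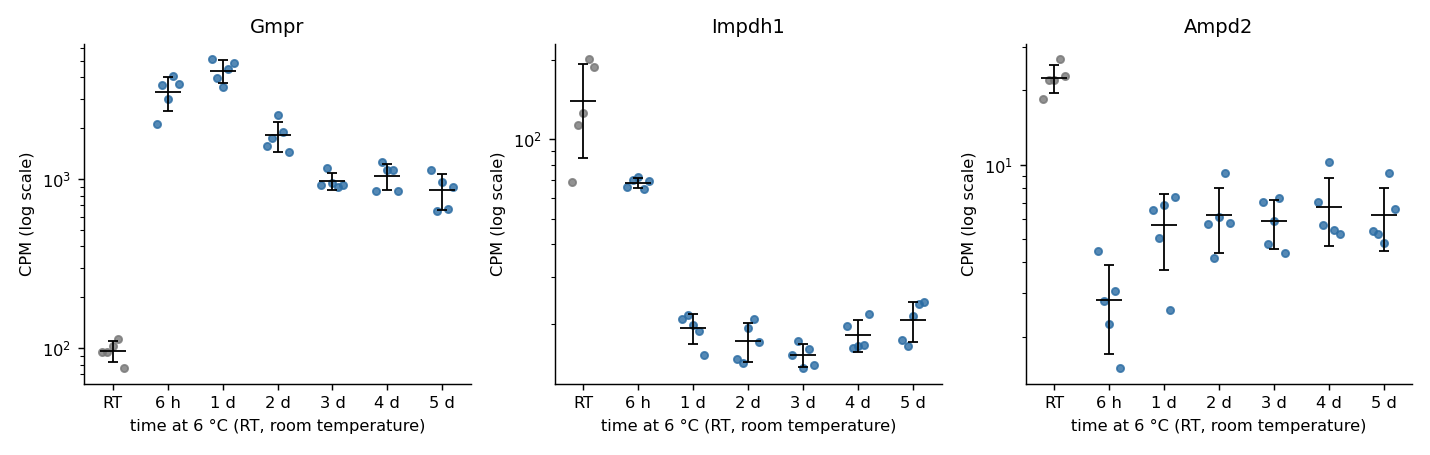
TMM-scaled CPM of Gmpr, Impdh1 and Ampd2 on log axes for the RT group (grey) and the 6 durations at 6 °C (blue). Each point is 1 mouse, and the bar and whiskers are the mean ± SD of 5 mice. Gmpr reached 3502 to 5109 CPM after 1 day and 650.3 to 1138 CPM after 5 days, while Impdh1 stayed at 13.6 to 24.2 CPM from 1 day on and Ampd2 was lowest, at 1.49 to 4.47 CPM, after 6 hours.

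The other 7 genes were compared with controls in a separate fit for each duration, by edgeR's quasi-likelihood test with Benjamini-Hochberg adjustment over all genes tested. Genes with an adjusted p below 0.05 were called, and all 7 were tested at every duration. After 6 hours 4 of the 7 were called, 2 higher and 2 lower, where 21.5% of all genes were called higher and 21.0% lower. After 1 day 3 were higher and 1 was lower (18.9% and 17.8% of all genes). At 2 days 2 were higher and 1 was lower (16.4% and 14.7%), and at 3 days 3 were higher and 1 was lower (18.3% and 15.5%). At 4 days 1 was higher and 0 were lower (19.4% and 18.6%), and at 5 days 2 were higher and 1 was lower (20.2% and 18.6%). With 7 genes these counts are near the background. Their median log2 difference was between -0.09, after 6 hours, and 0.25, after 1 day, beside medians of -0.03 and -0.02 over all genes tested. The 6 comparisons share the 5 control mice and are not independent.

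Gmps, which makes GMP from XMP, was called higher at 5 of the 6 durations. Controls had 32.7, 26.3, 36.4, 30.5 and 29.7 CPM. After 1 day the mice had 53.9, 65.5, 52.1, 57.5 and 57.1 CPM, all above the controls. Gmps rose by 0.40 on the log2 scale after 6 hours (SE 0.12, edgeR adjusted p = 0.011), by 0.88 after 1 day (SE 0.11, adjusted p = 1.39e-05) and by 0.44 after 2 days (adjusted p = 0.0122). The rise was 0.43 after 3 days (edgeR adjusted p = 0.0358) and 0.45 after 5 days (adjusted p = 0.00418), and the 4 day value of 0.29 did not pass (adjusted p = 0.0783). Leaving out 1 mouse at a time ended the 3 day call in 5 of 10 fits, and without the mouse at 59.1 CPM the log2 difference was 0.27. With library size as the only scaling, Gmps was still higher, but its values of 0.22 at 6 hours, 0.21 at 2 days, 0.29 at 3 days and 0.22 at 5 days did not pass.

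Ampd3, the other AMP deaminase gene among the 10, was called lower after 6 hours and higher at all 5 later durations. Control mice had 12.8, 10.7, 13.1, 14.7 and 16.7 CPM, and after 6 hours values were 7.62, 9.50, 10.3, 8.27 and 11.3 CPM. Of these mice 4 were below every control, and the log2 change was -0.55 (SE 0.17, edgeR adjusted p = 0.0134). After 3 days the mice had 24.8, 20.0, 20.7, 20.3 and 22.7 CPM, and after 5 days 22.8, 17.2, 25.1, 29.7 and 30.4 CPM. At 3, 4 and 5 days all 5 mice were above all controls. Log2 changes in edgeR were 0.49 at 1 day (adjusted p = 0.0354), 0.46 at 2 days (adjusted p = 0.037) and 0.68 at 3 days (adjusted p = 0.00137). They were 0.67 at 4 days (edgeR adjusted p = 0.00109) and 0.87 at 5 days (SE 0.17, adjusted p = 4.74e-04). With library size as the only scaling the 1 day and 2 day values, 0.26 and 0.23, did not pass, and leaving out 1 mouse at a time ended the 1 day call in 6 and the 2 day call in 7 of 10 fits.

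Guk1, the kinase that takes GMP to GDP, was called lower at every duration except 4 days. Controls had 52.5, 69.7, 57.0, 65.3 and 55.9 CPM. After 1 day the mice had 24.2, 34.6, 37.2, 34.9 and 41.4 CPM, below all controls. Guk1 fell by 0.81 on the log2 scale after 1 day (SE 0.13, edgeR adjusted p = 2.07e-04). The other called changes were smaller, at -0.29 for 6 hours (edgeR adjusted p = 0.043), -0.35 for 2 days (adjusted p = 0.0194), -0.42 for 3 days (adjusted p = 0.0282) and -0.40 for 5 days (adjusted p = 0.0452). After 4 days values ran from 36.9 to 64.3 CPM and the change of -0.31 did not pass (adjusted p = 0.0912). Leaving out 1 mouse at a time ended the call in 7 of 10 fits at 6 hours, 4 of 10 at 3 days and 8 of 10 at 5 days, and a fit of all 7 groups together ended it at 6 hours (-0.27) and 2 days (-0.34).

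Adsl and Xdh were called at few durations. Adsl had 8.91 to 13.3 CPM in controls, 11.7 to 22.5 CPM after 6 hours and 11.5 to 19.6 CPM after 1 day. It rose by 0.53 after 6 hours (SE 0.19, edgeR adjusted p = 0.0332) and by 0.44 after 1 day (SE 0.17, adjusted p = 0.0498) on the log2 scale, with 3 of 5 mice above all controls at both times, and its later values of 0.14 to 0.30 did not pass. Leaving out 1 mouse at a time ended these calls in 4 and 7 of 10 fits, and with library size as the only scaling the values were 0.33 and 0.22 and did not pass. Xdh was called after 3 days alone, with a rise of 0.39 (SE 0.12, edgeR adjusted p = 0.0204). Its controls lay close together, between 26.1 and 27.3 CPM, while mice after 3 days had 33.9, 25.9, 41.1, 36.1 and 37.4 CPM. Cold groups of Xdh ranged widely, for example from 13.8 to 34.5 CPM after 5 days, and that change of -0.20 did not pass (adjusted p = 0.378). Without the mouse at 41.1 CPM the 3 day change was 0.33 and was not called, nor was it in a fit of all 7 groups (0.38) or with library size only (0.26).

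Gmpr2 and Impdh2, the second genes of their enzymes, were not called at any duration. Gmpr2 lay between 1.51 and 7.86 CPM over all 35 mice, which is 8 to 37 reads, and its log2 differences from controls ran from -0.57 after 6 hours (SE 0.28, edgeR adjusted p = 0.115) to 0.04 after 4 days (SE 0.22). Impdh2 lay between 2.98 and 8.98 CPM, or 13 to 44 reads. After 6 hours all 5 mice, at 7.09, 5.79, 6.05, 8.27 and 7.99 CPM, were above all controls, which had 4.67 to 5.67 CPM, but the log2 difference of 0.41 (SE 0.19) did not pass (edgeR adjusted p = 0.0949). A p that misses the threshold does not show that either gene kept its level.

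**Figure D2:**
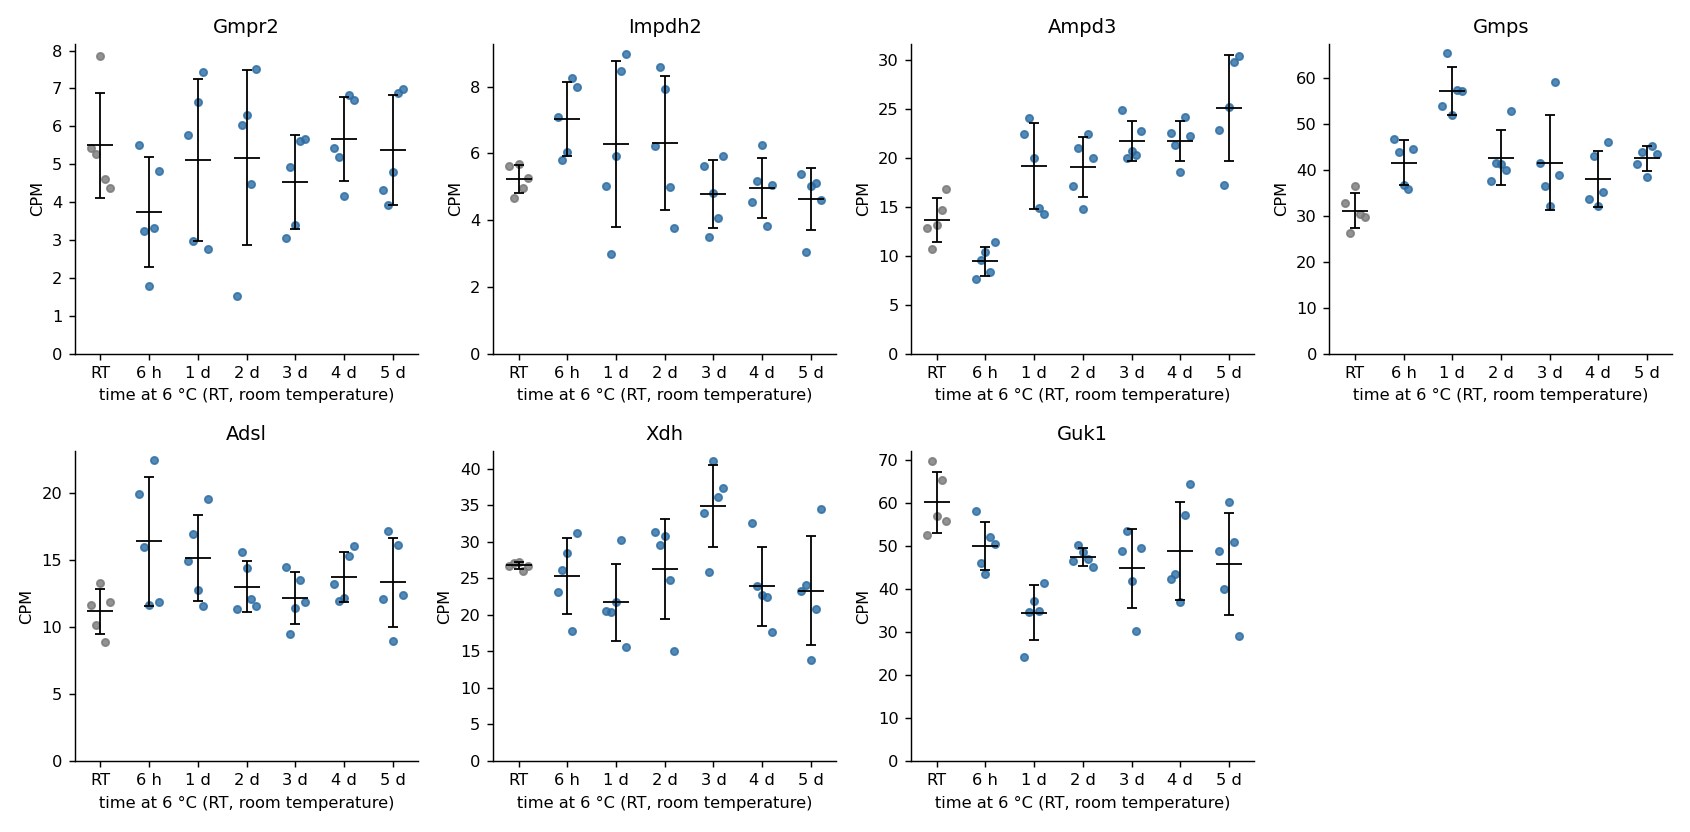
TMM-scaled CPM of the 7 tested genes, with axes from 0, for RT (grey) and the 6 durations at 6 °C (blue). Points are mice, and bars and whiskers are the mean ± SD of 5. Gmps was highest after 1 day (52.1 to 65.5 CPM), when Guk1 was lowest (24.2 to 41.4 CPM), Ampd3 dipped after 6 hours and stood above controls from 3 days on, and Gmpr2 and Impdh2 stayed under 9 CPM.

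Comparisons within the cold used no control mice. Between 1 and 5 days 2 of the 10 genes were called, both lower, where 19.4% of all genes were called (10.7% higher and 8.68% lower). Gmpr fell by 2.35 on the log2 scale (SE 0.17, edgeR adjusted p = 1.5e-07), or 5.09-fold, and Gmps fell by 0.43 (SE 0.11, adjusted p = 0.00982). Gmpr had been chosen by its rise in the cold, and these groups held its highest and lowest mean in the cold. Its p can therefore be too small. Impdh1 differed by 0.10 (SE 0.15, adjusted p = 0.681) and Ampd2 by 0.13 (SE 0.27, adjusted p = 0.785) in the same fit, and neither passed. The median over the 10 genes was 0.08, beside 0.00 over all genes. Between 6 hours and 1 day 3 of the 7 tested genes were called, 2 higher and 1 lower, where 16.9% of all genes were called (9.19% higher and 7.75% lower). Ampd3 rose by 1.03 (SE 0.18, edgeR adjusted p = 7.46e-04), Gmps rose by 0.47 (SE 0.11, adjusted p = 0.0089) and Guk1 fell by 0.53 (SE 0.14, adjusted p = 0.0128). Gmpr, Ampd2 and Impdh1 differed by 0.43, 1.06 and -1.82 between these times, which is given without a test.

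Ratios between genes within 1 library do not depend on the scaling between libraries, and a 3' end count is not proportional to transcript length. Of the counts for GMP reductase, Gmpr held 94.6 ± 1.13% at RT (SD, n = 5), 99.9 ± 0.0803% after 6 hours and 99.3 ± 0.254% after 5 days. This share fell by 0.534 percentage points from 1 to 5 days (p = 0.00794 in a two-sided exact permutation test of the 5 mice against 5, or 0.0238 adjusted over the 3 shares). It draws on the same Gmpr counts as the comparison of 1 and 5 days above, so it is no separate evidence. Impdh1 held 95.8 ± 2.03% of the IMP dehydrogenase counts at RT, 90.6 ± 1.59% after 6 hours and between 73.2% and 81.6% on average from 1 to 5 days. Its share differed by 6.22 points between 1 and 5 days, within the spread between mice (exact permutation p = 0.23, adjusted p = 0.345). Ampd2 held 62.3 ± 3.90% of the counts of Ampd2 and Ampd3 at RT and 20.0% to 24.6% on average at every cold duration. No cold-exposed mouse overlapped with a control. Ampd1, a further AMP deaminase gene in the count table, was not part of this share. Between 1 and 5 days that share differed by -2.83 points (exact permutation p = 0.516, also after adjustment).

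Ampd2 and Ampd3, summed without Ampd1, had 36.0 ± 4.40 CPM at RT, 12.2 ± 0.560 CPM after 6 hours, 24.8 ± 5.07 CPM after 1 day and 31.3 ± 6.73 CPM after 5 days. The sum of the IMP dehydrogenase genes was 144 ± 54.1 CPM at RT, 75.4 ± 2.42 CPM after 6 hours and 20.0 to 25.5 CPM on average later. Counts of GMP reductase per count of IMP dehydrogenase, the reactions that run in opposite directions between IMP and GMP, were 0.419 to 1.35 in controls. They were 29.1 to 55.3 at 6 hours, 137 to 202 at 1 day, 70.1 to 88.4 at 2 days, 44.5 to 56.6 at 3 days, 31.8 to 59.1 at 4 days and 23.2 to 50.03 at 5 days. All controls were below all cold-exposed mice, and the 1 day group was above all others. These ratios describe transcripts and not the activity of either enzyme.

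**Figure D3:**
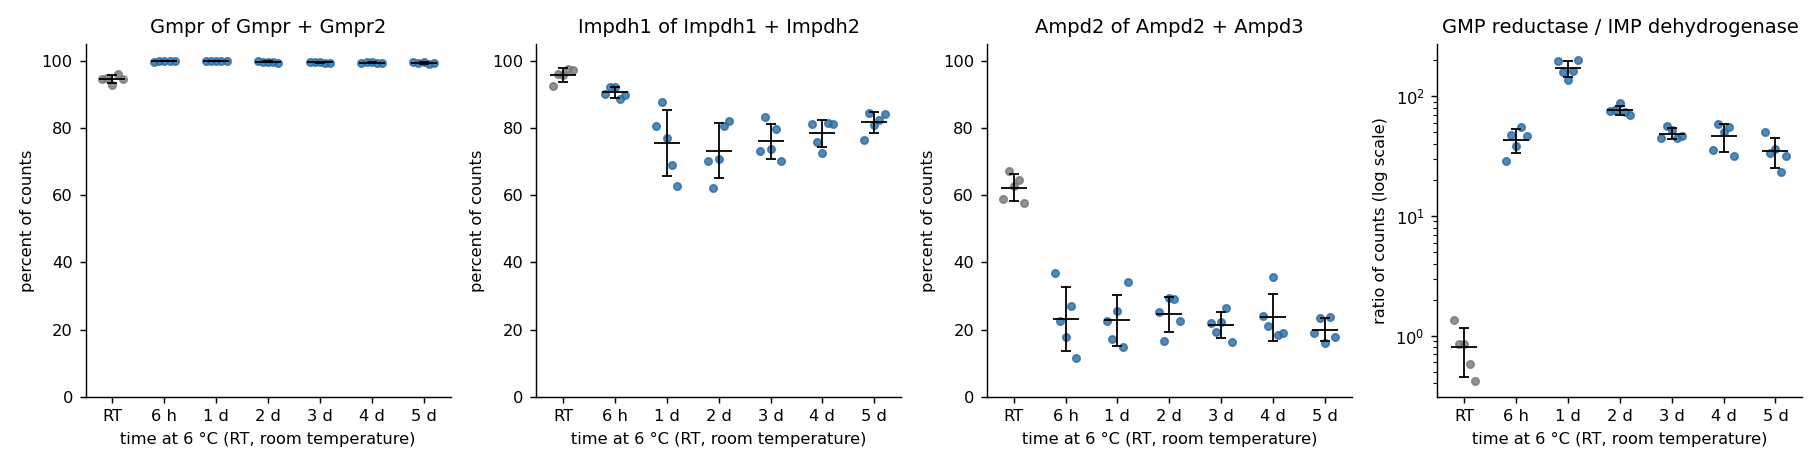
Share of the first gene in the counts of each enzyme pair (percent, axes from 0), and the ratio of GMP reductase to IMP dehydrogenase counts (log axis), by group. Points are mice, and bars and whiskers are the mean ± SD of 5. Ampd2 held 57.8% to 67.3% of Ampd2 and Ampd3 counts at RT and 11.6% to 37.0% in the cold. The ratio was 0.419 to 1.35 at RT and 137 to 202 after 1 day.

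Ucp1 served as a reading of the thermogenic response in the same libraries. It had 1290.2 to 2814 CPM in controls and 4131 to 9116 CPM in cold-exposed mice, and it rose by 1.90 after 6 hours (SE 0.17, edgeR adjusted p = 1.24e-07) and by 1.98 after 5 days (SE 0.18, adjusted p = 2.2e-07) on the log2 scale. Gmpr counts per 100 Ucp1 counts were 5.40 ± 1.73 at RT (SD, n = 5), 45.5 ± 11.1 after 6 hours, 56.4 ± 10.5 after 1 day and 11.9 ± 4.74 after 5 days, so the 2 genes did not keep a fixed proportion. From 1 to 5 days Ucp1 differed by -0.05 (SE 0.14, edgeR adjusted p = 0.835).

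Genes with the most similar course were ranked by Pearson's r of log2 CPM over the 35 mice among 12217 genes. For Gmpr they were Cars2, the mitochondrial cysteinyl-tRNA synthetase (r = 0.968), Cdkn1a, a cell cycle inhibitor (0.951), Nfil3, a transcription factor (0.944), Slc12a2, an ion cotransporter (0.939), and Mfsd2a, a lysophospholipid transporter (0.934). Impdh1 ran most like Car3, a carbonic anhydrase (0.921), Ivns1abp (0.918), Macrod1 (0.909), Lctl (0.908) and Gm44386 (0.900), and Ampd2 most like Angpt1, a ligand of the TIE2 receptor (0.896), Rasl12 (0.889), Trarg1 (0.872), Dgkd (0.857) and Sspn (0.856). The points share the 7 durations. With each duration's mean removed, r was 0.233 to 0.518 for Gmpr with its 5 genes and 0.210 to 0.428 for Ampd2 with its 5. For Impdh1 it was -0.0795 with Car3 and 0.309 to 0.552 with the other 4. Between Gmpr and Ucp1 r was 0.829 before and -0.0337 after the means were removed.

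Genes of the rest of purine metabolism were taken from 6 lists with 59 genes, of which 40 to 45 passed the filter on low counts. Of those tested, 21 of 40 were called at 6 hours (8 higher, 13 lower), 17 of 42 at 1 day, 20 of 43 at 2 days, 23 of 44 at 3 days, 21 of 45 at 4 days and 20 of 43 at 5 days. As shares these were 52.5%, 40.5%, 46.5%, 52.3%, 46.7% and 46.5%, beside the 42.5%, 36.7%, 31.2%, 33.8%, 38.0% and 38.8% of all genes given above. Median log2 differences over the lists together were between -0.18, after 6 hours, and 0.07, after 4 days, and those over all genes between -0.03 and -0.01.

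Of the de novo synthesis list, which leads up to IMP, no gene was called higher at any duration, and 2 to 4 of the 8 or 9 tested were called lower, where 16.4% to 21.5% of all genes were called higher and 14.7% to 21.0% lower. Paics, which carries out 2 middle steps, fell from 1 day on, by 0.52 after 1 day and 0.94 after 4 days (SE 0.13, edgeR adjusted p = 2.27e-05). Prps1, which makes the sugar phosphate that the ring is built on, also fell from 1 day on, with log2 changes of -0.58 after 1 day and -0.83 after 5 days (SE 0.16, adjusted p = 4.34e-04). The median of this list was -0.08 after 6 hours and -0.63 after 4 days.

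On the AMP branch, Ak6 was called higher at all 6 durations, by 1.08 after 1 day (SE 0.12, edgeR adjusted p = 4.08e-06), and Adssl1, an adenylosuccinate synthase, was called lower from 3 to 5 days, by 0.85 after 3 days (SE 0.19, adjusted p = 0.00277). Ak4, an adenylate kinase of mitochondria, had 0.194 to 2.00 CPM in controls, 1.81 to 4.50 CPM after 4 days and 1.94 to 4.53 CPM after 5 days. It passed the filter on low counts in the 4 day comparison alone, through the group in which it was high, so its call there, which is among the 21 of 45, is not read as a result. In the salvage list, whose enzymes reuse bases and nucleosides, Adk was lower after 6 hours (-0.45, edgeR adjusted p = 0.00753) and higher from 2 days on, up to 0.70 after 5 days (adjusted p = 2.5e-04), and Aprt was higher from 2 days on, by 1.03 after 3 days (adjusted p = 4.7e-04). No salvage gene of the 5 tested was called after 1 day, where 36.7% of all genes were, and 3 were called higher after 3 and after 4 days, where 18.3% and 19.4% of all genes were.

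Among nucleotidases and catabolic enzymes, Pnp, which splits nucleosides into base and sugar phosphate, was called higher at all 6 durations, by 1.09 after 2 days (SE 0.19, edgeR adjusted p = 5.48e-04). Gda, which deaminates guanine to xanthine, was called higher from 6 hours to 3 days, by 0.93 after 1 day (SE 0.15, adjusted p = 1.87e-04). Entpd5, a nucleoside diphosphatase, was called lower at all 6, by 1.02 after 6 hours (SE 0.11, adjusted p = 1.12e-06). Nme1, a nucleoside diphosphate kinase, was called higher at all 6 durations, with log2 changes of 0.75 to 1.15, and Rrm1, the large subunit of ribonucleotide reductase, from 1 day on.

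Of the 6 lists, the purine carriers had the most calls for their number after 6 hours, 8 of 9 tested, 4 in each direction, where 42.5% of all genes were called, 21.5% higher and 21.0% lower. Slc25a23, a mitochondrial ATP-Mg/phosphate carrier, was lower at all 6 durations. It had 40.7 to 53.5 CPM in controls and 6.91 to 16.7 CPM after 1 day, a log2 change of -1.99 (SE 0.19, edgeR adjusted p = 7.93e-07). Slc29a1, an equilibrative nucleoside transporter, had 15.6 to 34.1 CPM in controls and 63.2 to 104 CPM after 1 day, with a change of 1.59 (SE 0.17, adjusted p = 2.87e-06), and was higher at all 6. Slc28a2, a concentrative nucleoside transporter, was lower at all 6, by 0.93 to 1.17. Slc25a5, an ADP/ATP carrier of the inner mitochondrial membrane, was higher at every duration but 1 day, by 0.92 after 5 days (SE 0.13, adjusted p = 3.2e-05). Which of these lists differed from other genes was not tested.

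**Figure D4:**
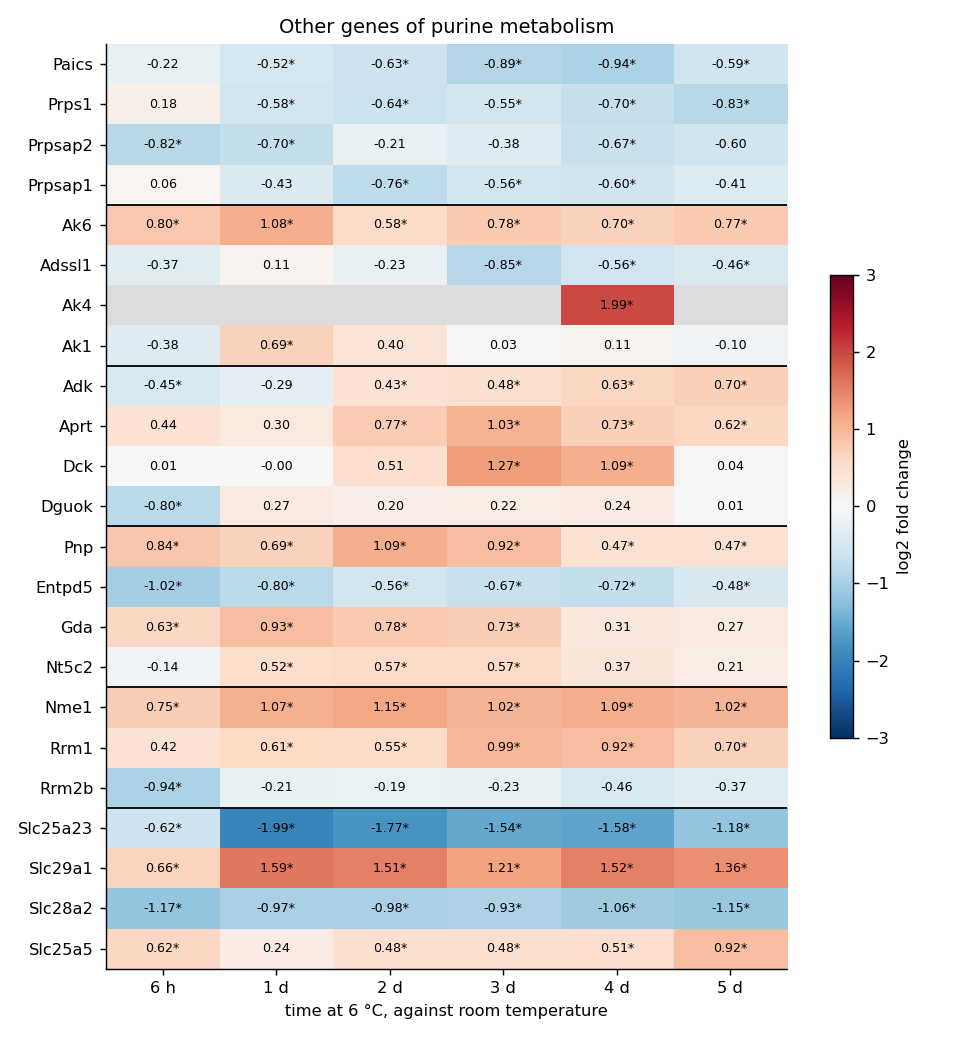
Log2 fold change against RT of the named genes of 6 lists of purine metabolism (separated by lines, from de novo synthesis at the top to transport at the bottom) at each duration of cold. An asterisk marks an edgeR adjusted p below 0.05 and grey cells were not tested. De novo genes are mostly lower, Nme1, Ak6, Pnp and Slc29a1 are higher at every duration, and Slc25a23 is lower at every duration, with -1.99 after 1 day. Ak4 passed the filter on low counts at 4 days alone, and its cell is not read as a result.

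Whole tissue was sequenced, so fewer cells of a type and less RNA per cell cannot be told apart. The brown adipocyte markers Ucp1, Cidea, Adipoq, Plin1, Fabp4 and Lpl were present in all groups, with summed levels of 14817 to 19233 CPM in controls and 16695 to 31948 CPM in the cold. Single markers went both ways at every duration, with 2 to 3 of the 6 called higher and 1 to 2 lower. For all genes 16.4% to 21.5% were called higher and 14.7% to 21.0% lower. The median log2 difference of the 6 markers lay between -0.08, after 3 days, and 0.16, after 5 days. Summed levels of 6 endothelial markers were 242 to 301 CPM in controls, 417 to 506 CPM after 6 hours, 487 to 576 CPM after 1 day and 226 to 374 CPM after 5 days. Of the 5 endothelial markers tested, 4 were called higher after 1 day (18.9% of all genes) and 4 lower between 1 and 5 days (8.68%). Gmpr and Gmps moved in these directions. Against controls after 6 hours, 2 of 6 endothelial markers were called higher and 1 lower. After 2 days 4 of 5 were called higher, after 3 days 3 of 5, and after 4 days 3 of 5 with 1 lower. After 5 days 0 of 6 were called higher and 1 lower. Over these durations 16.4% to 21.5% of all genes were called higher and 14.7% to 21.0% lower. Gmpr was above all controls at every duration, and Gmps after 1, 2 and 5 days. Summed proliferating cell markers were 2.0 to 8.4 CPM up to 1 day in every group, 3.69 to 50.1 CPM after 2 days and 11.4 to 63.1 CPM from 3 days on. Ampd3 was above all controls from 3 days on. It was also called higher after 1 and 2 days, calls that were lost in 6 and 7 of 10 fits without 1 mouse. Summed macrophage markers were 49.7 to 116 CPM in controls and 68.3 to 159 CPM from 3 to 5 days. Calls above controls numbered 0 of 5 up to 1 day, 1 of 5 at 2 days and 2 to 3 of 6 later. Between 1 and 5 days 5 of 6 rose (10.7% of all genes). The 5 erythroid markers summed to 1826 to 2344 CPM in controls and 2500 to 4516 CPM after 1 day, above all controls. After 5 days their sum was 2701 to 5005 CPM. Their higher calls, from 6 hours to 5 days in turn, were 3, 4, 0, 1, 2 and 3 (16.4% to 21.5% of all genes). None was called lower, and 2 rose between 1 and 5 days, when Gmpr fell. The 7 skeletal muscle markers ranged from 2.79 to 969 CPM over the mice and within groups. After 5 days 3 of them were called lower, where 18.6% of all genes were, and none at the other durations. The 5 stromal progenitor markers summed to 351 to 484 CPM in controls, 268 to 329 CPM after 1 day, which did not overlap, and 229 to 475 CPM from 2 to 5 days. Of the 4 tested after 1 day 3 were called lower (17.8% of all genes), when Guk1, Impdh1 and Ampd2 were also lower. After 6 hours and after 3 days 0 of 4 were called, and after 2, 4 and 5 days 1 was called lower (14.7% to 18.6% of all genes). Guk1, Impdh1 and Ampd2 were lower on average at all of these durations. No marker was at 0 in a whole group. The part of these cell types in the differences of the 10 genes was not tested.

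Several of the 10 genes share sequence with a neighbour on the other strand. Exons of Gmpr overlap those of Atxn1, which had 4540 counts in all 35 mice, those of Gmpr2 overlap Nedd8 (24298 counts) and Tinf2 (733 counts), those of Impdh2 overlap Ndufaf3, those of Ampd2 overlap Gm12500 (69 counts), and those of Ampd3 overlap Rnf141. Whether strand was used in counting is not given in the sources used here, so Gmpr2, which was far lower than Nedd8, is the least certain of these. Impdh2 also has a processed pseudogene elsewhere in the genome, and how reads common to both were counted is not given.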

How the data were processed

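RNA from whole iBAT of each of 35 mice was made into QuantSeq 3' FWD libraries. The authors aligned reads with STAR 2.6.1d and deposited, as 1 table of whole-number counts per gene, what HTSeq 0.11.2 counted on the GRCm38 annotation, with no normalization. The strand setting of the counting is not given in the sources used here. Libraries held 3846016 to 6047247 counts, so 1 CPM rests on a few reads.

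Each comparison of 2 groups was fitted over all genes with edgeR 4.0.16 in R 4.3.3 (TMM factors and the filterByExpr rule for low counts, then the quasi-likelihood test), and a gene was called where its p, adjusted by Benjamini-Hochberg, was under 0.05. Displayed CPM used TMM factors over all 35 libraries. Shares were tested by exact permutation of mice with scipy 1.17.1. The 10 genes, the lists and the tests were chosen with earlier results of these data known. Other purine genes were named by rule, up to 4 per list with the most durations called. Replicate numbers name mice and were not used as pairs. 267 identifiers had no symbol. The statistics were tested on simulated data.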

Additional observations from a re-analysis of the deposited data

Results flagged for a closer look

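Within groups of 5 mice, 2 of the 70 gene and group combinations of the 10 genes had a mouse far from the others by Dixon's test, a number that chance alone would also give, since it marks about 1 in 20 groups. In the 3 day group 1 mouse had 1172 CPM of Gmpr, where the other 4 had 896 to 952 CPM. In the 2 day group 1 mouse had 52.9 CPM of Gmps, where the other 4 had 37.6 to 41.6 CPM.

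Durations of cold differed from each other in 5 tests of the difference itself (edgeR, n = 5 mice a group). These were 2 of 10 genes between 1 and 5 days, where 19.4% of all genes were called. Between 6 hours and 1 day they were 3 of 7 genes, where 16.9% of all genes were called. Gmpr differed by -2.35 (log2) and Gmps by -0.43 between 1 and 5 days. Since Gmpr had been chosen by its rise in the cold, and these groups held its highest and lowest cold mean, its p can be too small. Ampd3 differed by 1.03, Gmps by 0.47 and Guk1 by -0.53 between 6 hours and 1 day.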

How the results depend on the processing

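Of the 7 tested genes, 4 were called after 6 hours and 4 after 1 day, and with a replicate block these became 2 and 2. Over all genes the block called 2252 higher and 2238 lower of 10593 after 6 hours, and 1842 and 1767 of 10658 after 1 day. Same-numbered mice correlated between -0.353 and 0.216. Mice with different numbers were not compared, so this check cannot show whether the numbers pair the mice. In the paired form the GMP reductase share changed by -0.534 points, with an exact sign-flip p of 0.0625, the smallest that 5 pairs allow. The block left the other counts of calls within 1.5 times. Scaling by library size only, which moved the median of all genes to between -0.25 and -0.15 on the log2 scale against controls, gave 1 called gene after 2 days, 2 after 3 days and 2 after 4 days, and turned the uncalled differences of Adsl after 2 days (-0.0058) and 3 days (-0.000611) and of Gmpr2 after 4 days (-0.10). It also split all genes after 6 hours into 1342 higher and 3399 lower, against 2280 and 2225. After 2, 3 and 4 days it called 931, 1339 and 1440 genes higher and 2776, 2430 and 2670 lower, of 10629, 10827 and 11048 tested. Without the filter on low counts Gmpr2 after 5 days was at 0.011. The differences of Gmpr, Impdh1 and Ampd2 from controls kept their direction in every alternative run, and the counts of purine pathway genes called stayed within 1.5 times. The cause of these changes was not tested.

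Leaving out 1 mouse at a time, with a spread pooled over the rest, gave 2 to 4 called genes after 6 hours, 2 to 5 after 1 day, 1 to 3 after 2 days, 2 to 4 after 3 days and 1 to 2 after 4 days. Over all genes such fits called 2018 to 2225 higher and 1953 to 2142 lower after 6 hours, and 1739 to 2040 and 1636 to 1866 after 1 day. These were 1462 to 1760 and 1277 to 1625 after 2 days, 1702 to 1941 and 1369 to 1613 after 3 days, and 1841 to 2121 and 1767 to 1992 after 4 days. Calls of Adsl, Ampd3 after 1 and 2 days and Gmps after 3 days were lost in 4 to 7 of 10 such fits. Those of Guk1 were lost in 7 of 10 after 6 hours, 4 after 3 days and 8 after 5 days. The calls of Guk1 after 2 days and Xdh after 3 days were each lost in 1 fit. Uncalled differences turned sign: Gmpr2 ranged from -0.23 to 0.074 after 1 day, -0.28 to 0.14 after 2 days, -0.028 to 0.20 after 4 days, -0.13 to 0.13 after 5 days and -0.086 to 0.22 between 1 and 5 days. Xdh ranged from -0.17 to 0.020 after 6 hours, -0.10 to 0.12 after 2 days and -0.083 to 0.26 between 1 and 5 days, and Impdh2 from -0.17 to 0.020 after 4 days. Between 6 hours and 1 day Impdh2 ranged from -0.33 to 0.0055 and Adsl from -0.20 to 0.045, and between 1 and 5 days Ampd2 ranged from -0.044 to 0.23. Gmpr2, Impdh2 and Ampd2 had the lowest counts of the 10 genes, with as few as 8 reads in a library, which limits their precision.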
